A study of Homo sapiens with 4 samples.

Results

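The regions described here are isolated poly(A) regions whose level was higher in libraries 3 and 4 than in libraries 1 and 2 of a single cell line. They were taken from a table of 31081 poly(A) regions by these criteria: a width above 10 bases, no region on the same strand within 5000 bases, at least 200 and fewer than 2000 reads summed over the 4 libraries, and a mean level in libraries 3 and 4 at least 1.5 times that in libraries 1 and 2. The level is CPM, the count of a region per 1000000 reads of its library. Without the last criterion 2887 regions were left, called the isolated regions below, and 354 of them met it. The measured levels of all 4 libraries thus chose the 354 regions, so their difference between libraries 3 and 4 and libraries 1 and 2 is given as a description and carries no test.

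All 4 libraries came from DICER(ex5) cells, a DICER hypomorph made from the human colon cancer line HCT116. No treatment is named, and the labels give a single group with no parental or other control. The libraries are biological replicates per the design text, and no label separates libraries 3 and 4 from libraries 1 and 2 by day, batch, clone or culture. The sources used here do not say whether the line is a single clone.

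Most mRNAs of human cells end where the nascent transcript is cleaved and a poly(A) tail is added, and many genes can be cleaved at more than one place. Poly(A) site sequencing reads the junction of transcript and tail, so the reads of a region are taken to count the transcripts that end there. An isolated region is an end with no other detected end close by on its strand. Dicer cuts microRNA precursors, and microRNAs in turn lower the level of mRNAs that carry their target sites. In bulk RNA, fewer cells that make a transcript and less of it per cell cannot be told apart.

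The libraries held 5713530 and 3984278 reads (libraries 3 and 4) and 5211279 and 2163977 reads (libraries 1 and 2), so library 2 gave the fewest counts per region. The libraries divided into 2 pairs over the isolated regions as a whole. Of the 2887, 1.59% differed past 1.5-fold in either direction between libraries 3 and 4, while libraries 1 and 2 differed by that much at 6.65%. Without the demand for isolation these shares were 2.04% and 6.62%. The share was 17.5% for library 3 over library 1, 29.5% for library 3 over library 2, 17.2% for library 4 over library 1 and 29.2% for library 4 over library 2. Regions are named by position on hg19, because the table gives no gene names. The reference tables at hand are of another build, so genes, the genomic category of each region and the markers of the cell type were not analysed here, and no sequence is shown.

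The 354 regions were 12.3% of the isolated regions, and 245 (8.49%) were at least 1.5-fold lower in libraries 3 and 4. With TMM scaling, which sets the libraries level by a trimmed mean of ratios, the numbers were 457 higher and 189 lower. The 354 had a median level of 35.7 and 33.8 CPM in libraries 3 and 4, against 18.8 and 14.8 CPM in libraries 1 and 2. The other 2533 isolated regions had medians of 29.9 and 29.6 CPM in libraries 3 and 4, against 32.4 and 31.9 CPM in libraries 1 and 2. The 354 regions thus lay above the other isolated regions in libraries 3 and 4 and below them in libraries 1 and 2. Together they took 1.70% (exact 95% interval 1.69% to 1.71%) and 1.64% (1.62% to 1.65%) of the reads of libraries 3 and 4, against 0.901% (0.893% to 0.909%) and 0.7095% (0.698% to 0.721%) of those of libraries 1 and 2. These intervals cover counting error only, since reads may include PCR copies.

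**Figure D1:**
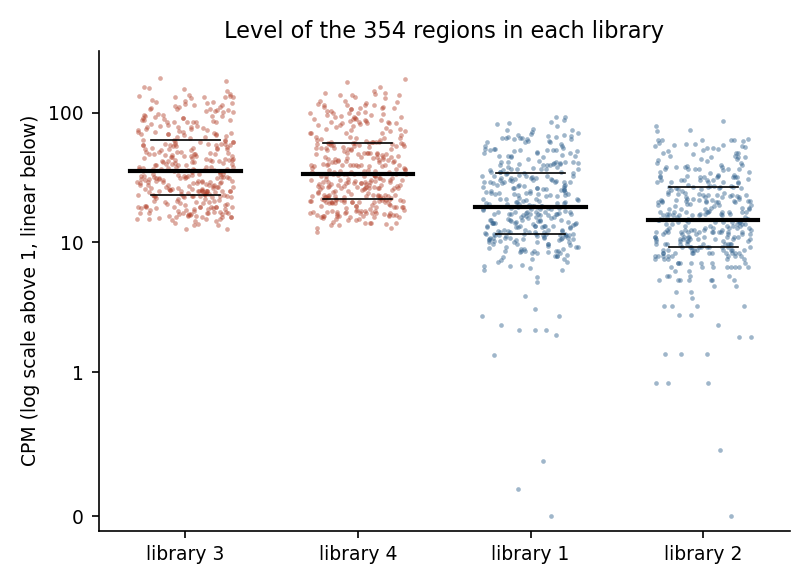
Level in CPM (log scale above 1, linear below) of each of the 354 regions in libraries 3, 4, 1 and 2; each point is a region, the thick line is the median and the thin lines are the quartiles. The medians are 35.7, 33.8, 18.8 and 14.8 CPM, and the lowest points of libraries 3 and 4 lie at 12.8 and 12.05 CPM while libraries 1 and 2 each have a region at 0.

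The criterion compares means and would admit a region in which a single library is high. In all 354 regions the lower of libraries 3 and 4 lay above the higher of libraries 1 and 2. This was so at 35.5% of all isolated regions. The gap between those levels had a median of 1.56-fold, with a smallest value of 1.009-fold. It was 1.5-fold or more at 196 of the regions. Lack of overlap does not show that libraries 3 and 4 carried each ratio alike. Without library 3, 33 of the 354 fell below 1.5-fold, and without library 4, 38 did. Library by library, the level was at least 1.5-fold higher at 250 regions for library 3 over library 1 (70.6%, against 9.53% of all isolated regions) and at 337 for library 3 over library 2 (95.2%, against 17.9%). It was so at 242 for library 4 over library 1 (68.4%, against 9.49%) and at 338 for library 4 over library 2 (95.5%, against 17.4%). The shares were higher against library 2 than against library 1 in the 354 regions and in all isolated regions alike. All these shares use the levels that chose the 354. Shares above those of all isolated regions follow from that choice and are a description only.

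Most of the 354 ratios were modest. The median ratio of mean CPM, libraries 3 and 4 over libraries 1 and 2, was 1.81, with quartiles of 1.62 and 2.29. From 1.5 to under 2-fold there were 219 regions (61.9%), from 2 to under 3-fold 84, from 3 to under 5-fold 28, from 5 to under 10-fold 12, and 11 regions were at 10-fold or more. Over all isolated regions the median ratio was 1.02. Regions of the same width and read number that had another region on their strand within 5 kb reached 1.5-fold at 12.5% of 5876, and all regions of the table at 13.8%, so the share among isolated regions was near that of the others.

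**Figure D2:**
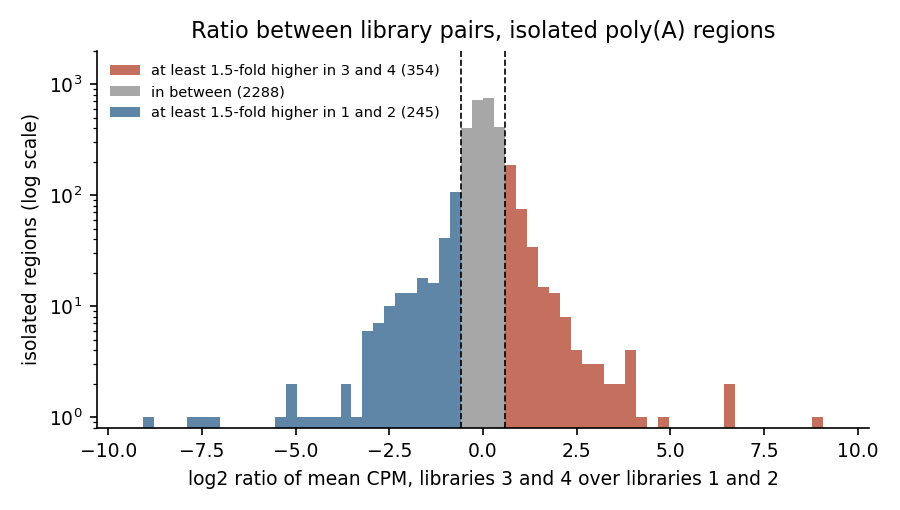
Number of isolated regions (log scale) by the log2 ratio of mean CPM, libraries 3 and 4 over libraries 1 and 2, with dashed lines at 1.5-fold in either direction. The 354 regions at the right form a tail, with 219 regions under 2-fold and 11 at 10-fold or more, and the 245 at the left form the opposite tail.

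The regions with the highest ratios were nearly without reads in libraries 1 and 2. At the top stood a region of 55 bases at chr12:52908339-52908393 (minus strand). It had 299 and 174 reads in libraries 3 and 4 (52.3 and 43.7 CPM), against 1 and 0 reads in libraries 1 and 2 (0.192 and 0 CPM). Its ratio of mean CPM was 500.3, and 250.2 without library 2. With reads pooled per pair the ratio was 359.7, with an exact 95% interval for counting error of 64.3 to 14238, and the 0 in library 2 allows up to 1.39 CPM (3 counts). The width of that interval comes from the single read in libraries 1 and 2.

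The next highest lay on the same strand of chromosome 12, 27348 bases away (chr12:52880912-52880991, 80 bases wide). It had 253 and 190 reads in libraries 3 and 4 (44.3 and 47.7 CPM), against 0 and 2 in libraries 1 and 2 (0 and 0.924 CPM). Its ratio of mean CPM was 99.5, and 49.8 without library 1, and the pooled ratio was 168.5 (46.4 to 1395). These regions of chromosome 12 were each other's nearest same-strand region in the table, and both were well covered in libraries 3 and 4 and almost absent from libraries 1 and 2.

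The third was at chr17:39775679-39775725 (minus strand), with 372 and 234 reads in libraries 3 and 4 (65.1 and 58.7 CPM), against 2 and 2 in libraries 1 and 2 (0.384 and 0.924 CPM). Its ratio of mean CPM was 94.7, and it was 67.0 without library 1 and 161.3 without library 2. Its pooled ratio was 115.2 (44.8 to 424.2). The ratios of these 3 regions rest on 1 to 4 reads in libraries 1 and 2 together.

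The fourth lay at chr2:170668252-170668299 (minus strand) and had 57.8 and 44.7 CPM in libraries 3 and 4, against 2.11 and 1.39 CPM in libraries 1 and 2, a ratio of 29.3. Its pooled ratio was 27.6 (16.3 to 50.8), an interval that overlaps those of the second and the third. The fifth was the best covered of the 10 highest, at chr8:62492438-62492465 (plus strand), with 131.4 and 101.1 CPM in libraries 3 and 4, against 8.06 and 3.23 CPM in libraries 1 and 2. Its ratio of 20.6 depended on which of libraries 1 and 2 was taken: it was 36.0 without library 1 and 14.4 without library 2.

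The remaining 5 of the 10 highest had ratios from 13.8 to 16.8. At chr20:18550164-18550209 (plus strand) the level was 26.1 and 21.6 CPM in libraries 3 and 4, against 1.92 and 0.924 CPM in libraries 1 and 2, and its ratio of 16.8 became 25.8 without library 1. At chr1:171562619-171562654 (plus strand) it was 32.03 and 25.6 CPM in libraries 3 and 4, against 2.11 and 1.39 CPM in libraries 1 and 2. Each of these had 2 or 3 reads in library 2, so their ratios rest on few counts. At chr4:145916297-145916321 (minus strand) the level was 29.4 and 22.1 CPM in libraries 3 and 4, against 2.69 and 0.462 CPM in libraries 1 and 2, and the ratio of 16.4 became 55.7 without library 1 and 9.58 without library 2. The second chromosome 1 region, chr1:96914120-96914160 (plus strand), had 28.5 and 22.8 CPM in libraries 3 and 4, against 1.34 and 1.85 CPM in libraries 1 and 2. Here, as at the second and the third of the 10, library 2 was above library 1. At chr17:49375255-49375299 (plus strand) the level was 46.7 and 33.6 CPM in libraries 3 and 4, against 3.07 and 2.77 CPM in libraries 1 and 2.

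**Figure D3:**
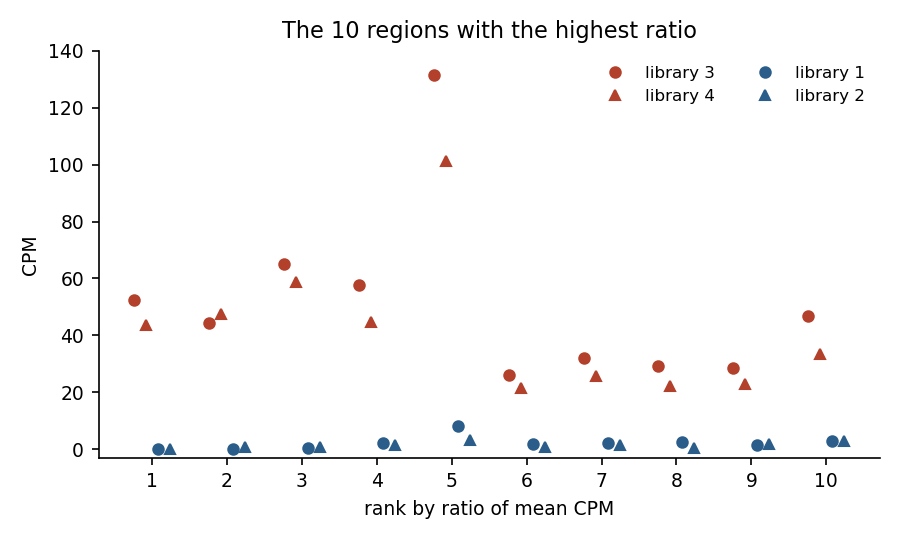
CPM of the 10 regions with the highest ratio of mean CPM, ranked from left to right, with 1 marker per library (red circle library 3, red triangle library 4, blue circle library 1, blue triangle library 2). In every one of the 10 the values of libraries 3 and 4 lie between 21.6 and 131.4 CPM, and those of libraries 1 and 2 between 0 and 8.06 CPM.

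The 5 regions with the most reads had ratios that rest on many counts in every library. The region at chr2:132241526-132241568 (minus strand) had 156.6 and 136.3 CPM in libraries 3 and 4, against 82.7 and 56.8 CPM in libraries 1 and 2, a ratio of 2.10. That at chr6:42989018-42989042 (plus strand) had 147.7 and 132.3 CPM in libraries 3 and 4, against 88.5 and 73.9 CPM in libraries 1 and 2, a ratio of 1.72. In both, library 3 was the highest and library 2 the lowest. The region at chr14:52471389-52471441 (plus strand) stood out among the 5, with 174.8 and 171.7 CPM in libraries 3 and 4, against 44.1 and 29.1 CPM in libraries 1 and 2. Its ratio was 4.73, and its pooled ratio 4.37 (exact 95% interval 3.86 to 4.96). At chr16:81009687-81009721 (minus strand) the level was 129.7 and 140.1 CPM in libraries 3 and 4, against 92.9 and 85.5 CPM in libraries 1 and 2, a ratio of 1.51. At chr3:52262610-52262648 (minus strand) it was 136.9 and 146.6 CPM in libraries 3 and 4, against 85.4 and 61.9 CPM in libraries 1 and 2, a ratio of 1.92. In these last regions library 4 was the highest, so the order of libraries 3 and 4 was not fixed.

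The regions nearest the 1.5-fold limit show how little separates the 354 from the rest. Just inside it, a region at chr14:35221929-35221956 (minus strand) had 32.03 and 38.9 CPM in libraries 3 and 4, against 26.5 and 20.8 CPM in libraries 1 and 2. The next inside were at chr3:195590227-195590244 (minus strand) and chr11:3847576-3847607 (plus strand), and the 3 ratios were 1.5004, 1.501 and 1.502. Just outside it, a region at chr16:19564717-19564736 (plus strand) had 19.3 and 22.1 CPM in libraries 3 and 4, against 16.5 and 11.1 CPM in libraries 1 and 2, a ratio of 1.498. The others just outside lay at chr20:62065023-62065040 and chr7:154735391-154735406 (both minus strand), at 1.498 and 1.497. The limit thus falls within a continuous range of ratios.

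The criterion used the mean of each pair of libraries and not the difference within it. Libraries 3 and 4 were close: 3 of the 354 regions (0.847%) differed past 1.5-fold in either direction, against 1.59% of all isolated regions. Library 3 was the higher at 2 of these 3, a direction found at 0.554% of all isolated regions. The share past 1.5-fold was 10.2% at the 245 regions at least 1.5-fold lower in libraries 3 and 4. It was 0.787% at the 2288 isolated regions in between, so the 354 were near those. Library 3 was above library 4 at 218 of the 354 (61.6%), against 51.6% of all isolated regions. The median ratio of library 3 over library 4 was 1.03. Pearson's r of log2(CPM + 1) between these libraries was 0.976 over the 354 regions and 0.977 over the other isolated regions. These are correlations across regions, which share their libraries and are not independent replicates.

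Libraries 1 and 2 were less alike. Past 1.5-fold in either direction were 101 of the 354 regions (28.5%), against 6.65% of all isolated regions, which include the 354. Of these 101, 96 had library 1 higher, a direction found at 5.23% of all isolated regions. The share past 1.5-fold was 3.45% at the 2288 isolated regions in between. At the 245 regions at least 1.5-fold lower in libraries 3 and 4 it was 4.90%, and 10.2% between libraries 3 and 4. On either side the pair with the lower levels thus differed more often. Library 1 was above library 2 at 304 of the 354 (85.9%), against 55.9% of all isolated regions. The median ratio of library 1 over library 2 was 1.29 at the 354 regions and 1.01 at the other 2533. Library 2 was the lowest of the 4 libraries at the same 304 regions, against 38.4% of all isolated regions. With libraries 3 and 4 above libraries 1 and 2 in all 354, this is the same result and not a further one. The order library 3, library 4, library 1, library 2 from high to low was found in full at 192 regions (54.2%), against 14.9% of all isolated regions. Libraries 3 and 4 both lay above libraries 1 and 2 at 35.5% of all isolated regions. The contrasts in lowest library and in full order thus follow in part from the choice. The criterion uses the mean of libraries 1 and 2, so a low level in either of them helps a region to meet it. These shares carry no test, and why library 2 was more often the lower was not tested.

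Library 2 was also the shallowest library. The 354 regions had a median of 32 reads there, and 20 of them had fewer than 10. Among the 112 regions with at least 200 reads in libraries 1 and 2 together, library 1 was above library 2 at 107, with a median ratio of 1.29, against a median of 1.01 at the other 1494 isolated regions of that depth. These 112 were chosen on the same values, so they describe the deeper regions and do not separate depth from the choice. Regions were also chosen on a random 50% of the reads of each library and measured on the other reads, which gave 393 regions. In the other reads 278 of them (70.7%) were again at 1.5-fold or more and 8 were below 1. On all reads 12.3% of the isolated regions reached 1.5-fold. In the other reads library 1 was above library 2 at 296 of the 393 (75.3%), with a median ratio of 1.24 against 1.03 over all isolated regions. Such a split sets aside counting error only, and less of it where reads are PCR copies, because both sets of reads come from the same libraries. Both alternatives were added once the data had been seen. The part of depth and of the choice in the difference between libraries 1 and 2 was not tested.

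The ratios within each pair are given next by the ratio between the pairs. Among regions from 1.5 to under 2-fold, the median of library 1 over library 2 was 1.246 and that of library 3 over library 4 was 1.01. From 2 to under 3-fold these medians were 1.35 and 1.09, from 3 to under 5-fold 1.41 and 1.10, and at the 23 regions at 5-fold or more 1.52 and 1.20. Among the 354, the median for libraries 1 and 2 was thus higher in each successive group, while that for libraries 3 and 4 was close to 1 under 2-fold. In the isolated regions from 0.67 to under 1.5-fold the median of library 3 over library 4 was also close to 1, at 1.01 and 1.00. At the 38 regions with a ratio under 0.2 the medians were 0.867 for library 1 over library 2 and 0.897 for library 3 over library 4. The groups are formed from the same values, so a low value in library 2 raises both ratios, and the order of the groups is a description only.

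**Figure D4:**
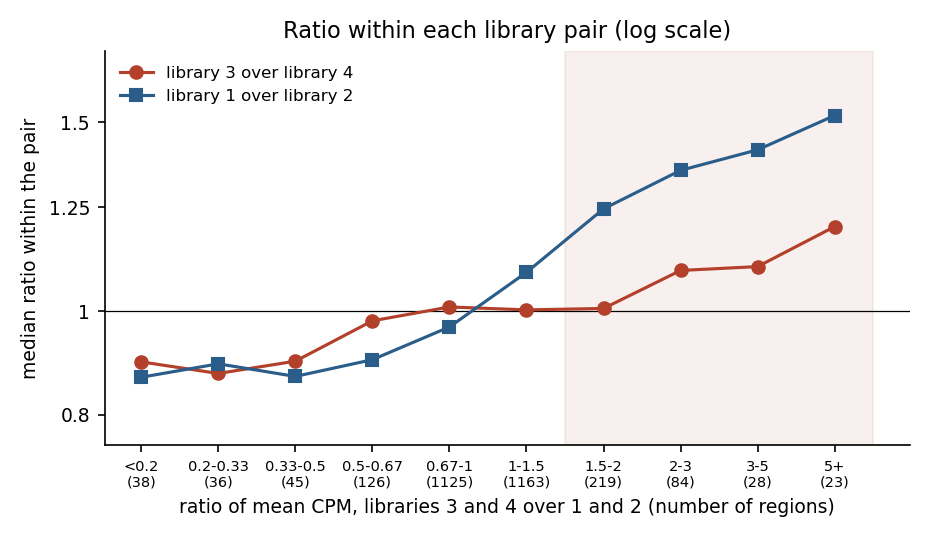
Median ratio within each pair (log scale) for isolated regions grouped by the ratio of mean CPM, libraries 3 and 4 over libraries 1 and 2, with the number of regions in brackets; red circles are library 3 over library 4, blue squares library 1 over library 2, and the shaded groups are the 354 regions. The line of library 3 over library 4 stays near 1 in the middle groups, and at 5-fold or more the medians are 1.20 for library 3 over library 4 and 1.52 for library 1 over library 2.

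The 3 regions in which libraries 3 and 4 differed most were on chromosomes 5, 22 and 6. At chr5:179036995-179037028 (plus strand) the level was 43.4 and 26.1 CPM in libraries 3 and 4, against 12.3 and 6.01 CPM in libraries 1 and 2, so that library 3 was 1.66-fold above library 4. Its ratio of 3.801 became 5.79 without library 1, 2.83 without library 2 and 2.85 without library 3. At chr22:29655573-29655597 (plus strand) it was 14.5 and 22.6 CPM in libraries 3 and 4, against 8.83 and 12.5 CPM in libraries 1 and 2. At chr6:27618716-27618729 (minus strand) it was 18.6 and 12.05 CPM in libraries 3 and 4, against 9.98 and 10.2 CPM in libraries 1 and 2. The groups did not overlap in any of the 3, but on chromosome 22 library 3 was only slightly above library 2. For libraries 1 and 2 the largest ratios were those of both chromosome 12 regions above, each with a 0 in 1 library, and of the chromosome 4 region, with 14 and 1 reads.

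The width of a region, the span from its start to its end, was similar in the 354 regions and the isolated regions. The 354 had a median width of 33 bases (quartiles 24 and 43), and the isolated regions as a whole also had 33 (25 and 42). The 245 regions of the opposite tail were narrower, with a median of 29 bases (21 and 36). By width, the share of isolated regions that belonged to the 354 was 15.4% (exact 95% interval 9.38% to 23.2%) at 11 to 15 bases, 14.5% at 16 to 20, 11.7% at 21 to 30, 10.5% at 31 to 40, 14.3% (11.7% to 17.2%) at 41 to 60 and 9.88% (5.86% to 15.4%) at 61 or more. These intervals overlap. For the opposite tail the share was 23.9% at 11 to 15 bases and 4.19% at 41 to 60. Within the 354, the 135 regions at 2-fold or more had a median width of 36 bases.

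**Figure D5:**
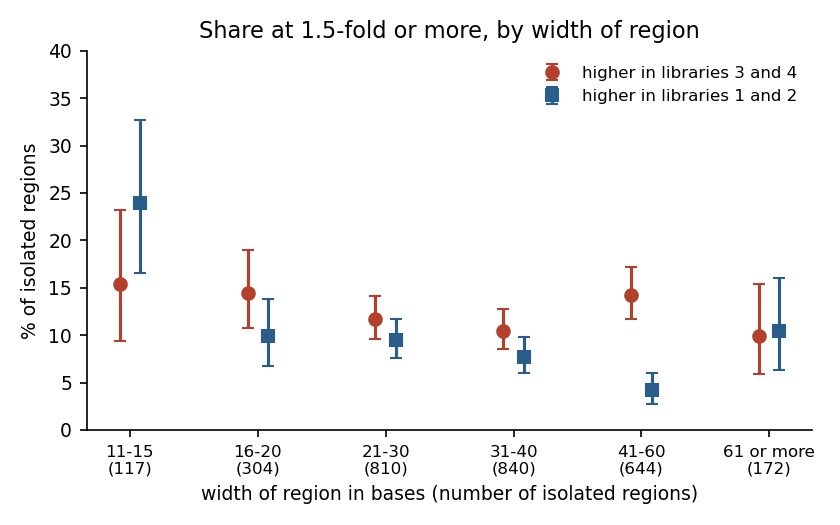
Share of isolated regions that were at least 1.5-fold higher in libraries 3 and 4 (red circles) or in libraries 1 and 2 (blue squares), by width of the region in bases, with the number of isolated regions in brackets; bars are exact 95% intervals of a share of regions, which are not replicates. The red shares lie between 9.88% and 15.4% at all widths, while the blue share is 23.9% in the narrowest group and 4.19% at 41 to 60 bases.

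The extremes of width showed no common level. The widest region, at chr18:21534879-21535101 (plus strand), spanned 223 bases and had 42.7 and 38.9 CPM in libraries 3 and 4, against 9.21 and 8.78 CPM in libraries 1 and 2, a ratio of 4.54. The next, both on the minus strand, were chr1:209788178-209788304 (127 bases, ratio 1.53) and chr1:45187450-45187551 (102 bases, ratio 3.21). The 102-base region was well covered, with 155.4 and 156.4 CPM in libraries 3 and 4, against 51.4 and 45.7 CPM in libraries 1 and 2. The narrowest regions, at chr16:28603107-28603117 (plus strand), chr15:75128452-75128463 (minus strand) and chr19:19657465-19657476 (plus strand), were 11, 12 and 12 bases wide and had ratios of 1.72, 1.746 and 1.74. Wide and narrow regions alike were above libraries 1 and 2 in both libraries 3 and 4.

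By number of reads the share of isolated regions among the 354 was 13.8% (11.2% to 16.8%) at 200 to 299 reads, 13.3% at 300 to 499, 11.1% at 500 to 999 and 11.1% (8.73% to 13.9%) at 1000 or more. The shares of the opposite tail were 12.9%, 10.2%, 6.46% and 4.82% in the same order. The 354 regions had a median of 465.5 reads and the isolated regions one of 523. The plus strand held 167 of the 354 (47.2%) and 51.1% of the isolated regions.

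The 354 regions lay on 23 chromosomes, most of them on chromosomes with many isolated regions. Chromosome 1 had 35 of them (11.2% of its 312 isolated regions), chromosome 17 had 32 (15.5% of 207), chromosome 2 had 31 (17.3% of 179, interval 12.1% to 23.7%) and chromosome 19 had 29 (11.1% of 262). The lowest shares were on chromosome 21 (1 of 20), chromosome X (5 of 83, 6.02%, interval 1.99% to 13.5%) and chromosome 15 (6 of 94, 6.38%, interval 2.38% to 13.4%). The highest was on chromosome 18 (6 of 29, 20.7%), with an interval of 7.99% to 39.7%. Each of the intervals given includes 12.3%, which is likewise a description over regions.

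The neighbourhood of the regions was examined next, since it was not part of the ratio that chose them. The nearest region on the same strand lay a median of 36762 bases away, against 36397 for all isolated regions, and 84 of the 354 (23.7%) had none within 100 kb, against 24.5%. Of these nearest regions 179 had at least 100 reads, and 19 of them (10.6%, interval 6.51% to 16.1%) were themselves at least 1.5-fold higher in libraries 3 and 4, against 10.4% of the neighbours of all isolated regions. Their median ratio was 1.05, against 1.02 for the neighbours of all isolated regions. The share of neighbours with a like difference was thus near the background. The farthest from any region on its strand was at chr3:188608450-188608469 (plus strand), 1440706 bases from the nearest, with 19.1 and 18.3 CPM in libraries 3 and 4, against 10.7 and 11.6 CPM in libraries 1 and 2. The next of these, chr10:18970542-18970584 and chr3:25836016-25836037 (both plus strand), were at 1204234 and 908227 bases and had ratios of 1.51 and 1.62. Without library 2 the second of these and the chromosome 11 region just inside the limit had ratios of 1.28 and 1.29.

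A region on the other strand within 2 kb was present at 59 of the 354 (16.7%, interval 12.9% to 20.97%), against 16.8% of all isolated regions. In 46 of these the plus-strand region was on the left, the order of converging transcripts, in 7 it was on the right, and 6 overlapped. Among all isolated regions the numbers were 329, 91 and 65. Of 43 such neighbours with at least 100 reads, 6 were at least 1.5-fold higher in libraries 3 and 4 (14.0%, interval 5.30% to 27.9%), against 13.4% for all isolated regions, and 6 were at least 1.5-fold lower. The share of regions across from the 354 with a like difference was thus near the background.

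Of the 6 regions that overlapped one on the other strand, the 3 with the highest ratios are described. The others started at chr16:89762732, chr17:73262304 and chr16:11772925 and had ratios of 1.66, 1.58 and 1.55. The regions across from those are not described here. At chr10:105148803-105148829 (minus strand) the level was 185.9 and 180.5 CPM in libraries 3 and 4, against 26.1 and 11.1 CPM in libraries 1 and 2, a ratio of 9.85, the highest level in libraries 3 and 4 among the 354. The plus-strand region there (chr10:105148806-105148830) had 18.7 and 20.1 CPM in libraries 3 and 4, against 22.6 and 20.8 CPM in libraries 1 and 2, a ratio of 0.893. The strands thus differed at a site shared to within 3 bases, and the minus-strand ratio was 16.5 without library 1 and 7.02 without library 2.

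At chr11:6632071-6632116 (plus strand) the level was 126.2 and 118.7 CPM in libraries 3 and 4, against 66.2 and 51.8 CPM in libraries 1 and 2, while the minus-strand region it overlapped (chr11:6632020-6632113) had 156.8 and 152.1 CPM in libraries 3 and 4, against 202.6 and 166.8 CPM in libraries 1 and 2. At chr16:135811-135861 (plus strand) it was 56.2 and 58.7 CPM in libraries 3 and 4, against 32.4 and 31.9 CPM in libraries 1 and 2, and the minus-strand region there had a ratio of 1.10. In these 3 overlaps only the region on one strand reached 1.5-fold. The sources used here do not say how reads were assigned to strands.

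The distances among the 354 regions were examined last. Another of the 354 lay within 100 kb, on either strand, at 31 of them (8.76%, interval 6.03% to 12.2%), and 9.28% of the other isolated regions had one of the 354 within that distance. Adjacent pairs within 100 kb numbered 16, with 10 on the same strand. The closest was on chromosome 22, where the plus-strand region named above was followed after 239 bases by a minus-strand region starting at 29655836, with 37.6 and 29.6 CPM in libraries 3 and 4, against 18.8 and 12.5 CPM in libraries 1 and 2. Both strands were thus higher in libraries 3 and 4 at this site, unlike at the 3 overlaps described above. The next closest pairs were on chromosome 9 (132484942 and 132500608, 15649 bases between them) and chromosome 14 (93653418 and 93669230, 15790 bases), each with the plus-strand region on the left and with ratios of 1.65 and 2.03 and of 2.81 and 2.25. The chromosome 12 regions with the highest ratios were the sixth closest pair.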

How the data were processed

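The deposited table holds unscaled read counts of 4 libraries for each poly(A) region, and its position and strand, per the file headers. Per the submitters' processing notes, Bowtie2 2.2.5 and hg19 were used. The sources used here do not say how reads were joined into regions, filtered or cleared of PCR copies. Positions are printed as deposited, and widths are end minus start plus 1.

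Counts were divided by the column total to give CPM, so a level depends on the other regions of its library. The distance between regions is the start of the next minus the end of the one before it. Libraries 3 and 4 were set against libraries 1 and 2 as the criterion has it. The libraries are replicates of a single group, so no test was made, and differences past a fold are counts beside the same over all isolated regions. Intervals are exact 95% Clopper-Pearson intervals. Those of shares of reads and of pooled ratios count reads, and those of shares of regions count regions. The floor is 3 counts.

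The regions and lists were chosen with earlier results of these data known. Named regions were the 10 with the highest ratio, the 5 with the most reads, and 3 each with the largest ratio within a pair of libraries, the greatest and least width, a ratio just inside and just outside the limit, the nearest opposite-strand region, the most distant same-strand region and the closest pair. Scalings by edgeR 4.0.16 (TMM) and DESeq2 1.42.0, other limits, left-out libraries and thinned counts were tried, and, chosen after seeing the data, separate reads for choice and measurement. The rule was tried on simulated counts that held counting error and a set fold, with no other difference between libraries. That trial does not cover the spread among the libraries used here. Python 3.11.15, pandas 2.3.3 and scipy 1.17.1 were used.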

Additional observations from a re-analysis of the deposited data

How the results depend on the processing

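The number of regions followed the limits that define them. It was 708 with a limit 25% above libraries 1 and 2 and 135 at 2-fold. It was 196 when the lower of libraries 3 and 4 had to reach 1.5 times the higher of libraries 1 and 2. With no read limits it was 1284, with a minimum of 100 reads 541, and with a minimum of 400 reads 211. With each library left out in turn it lay between 258 and 495, and 220 of the 354 stayed at 1.5-fold under all of the 3 scalings, 4 left-out libraries and 0.5 reads added to each count. All 135 regions at 2-fold or more did so.

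TMM scaling moved the median log2 ratio of all regions by 0.11. It gave 457 regions higher and 189 lower in libraries 3 and 4 (70.7% higher), against 354 and 245 (59.1%) with column totals. DESeq2 size factors gave 432 and 199 (68.5%), and scaling by the total over regions wider than 10 bases moved the other way, to 327 and 271 (54.7%). The median ratio of 1.81 was 1.95 with TMM and 1.92 with DESeq2 size factors, 1.68 to 2.13 without a library, and 1.751 on reads not used to choose the regions. The share past a fold between libraries 3 and 4 was 12.7% for a limit of 25% and 0% for 2-fold, and between libraries 1 and 2 it was 60.5% and 7.63%. The share with library 1 above library 2 was 95.5% with at least 200 reads in both together and 75.3% on separate reads. The median width was 36 at 2-fold and 33 to 34 with a library left out. The share with an opposite-strand region was 23.2% within 5000 bases, against 23.3% of all isolated regions. No ratio of a named region turned below 1 in any of these settings that gave a value. With a library left out this was fixed in advance, since libraries 3 and 4 both lay above libraries 1 and 2 in all 354. The scalings moved ratios too little to bring one from 1.5 to below 1.

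Without a genome of hg19, the counts of poly(A) signals and of A-rich sequence beside the regions were not run. Whether each region is a true transcript end was thus not checked. No paired analysis was possible because the libraries form a single group. Of 51 values examined for 1 library far from the other 3, none stood apart. The regions described here were chosen for a high pair and a low pair of libraries. In such regions that search has little room to find a single library far from the rest. It therefore cannot decide whether any library was aberrant. Depth limits the highest ratios most, since regions of 10-fold or more rest on few reads in libraries 1 and 2.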
